A study of Mus musculus with 8 samples.

Results

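The polyamine metabolism genes described here are *Odc1*, *Amd1*, *Srm*, *Sms*, *Sat1*, *Oaz1*, *Oaz2*, *Azin1*, *Smox* and *Paox*, taken in whole prostate of mice with and without *Olfm4*. Every probe set annotated to one of these 10 symbols was used, which gave 18 of 45037 probe sets and 8 of 18194 genes. *Amd1* and *Paox* had no named probe set in the annotation and are not analysed here. Of the 18 probe sets, 14 had 1 symbol and 4 also named a pseudogene, which were all 3 of *Sms* (with *Sms-ps*) and 1 of *Oaz1* (with *Oaz1-ps*). The samples were 4 *Olfm4*-knockout (*Olfm4*-/-) and 4 wild-type (*Olfm4*+/+) mice, 3 months old, with whole prostate of 1 mouse on each Affymetrix expression array. The background of both groups was 50% 129/SV, and the other 50% came from Black Swiss mice of the National Institutes of Health. The line was kept by mating heterozygotes, the methods name no restriction of the deletion to a cell type, and the lobes of the prostate were not separated. Each of 2 array days, read from the dates in the sample titles, held 2 arrays of either genotype.

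Polyamines are small positively charged molecules that bind nucleic acids and that the prostate makes and secretes in large amounts. Ornithine decarboxylase (*Odc1*) makes putrescine, and with aminopropyl groups from S-adenosylmethionine, which *Amd1* decarboxylates, spermidine synthase (*Srm*) and spermine synthase (*Sms*) extend it. Antizymes (*Oaz1*, *Oaz2*) bind ornithine decarboxylase and send it to the proteasome, and the antizyme inhibitor (*Azin1*), an ODC-like protein without enzyme activity, takes the antizymes away. Breakdown runs through the acetyltransferase *Sat1* and the oxidases *Smox* and *Paox*. Much of this control acts on translation and protein turnover, which arrays do not measure.

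The stretches of 250 bases before the start sites of *Odc1*, *Sms* and *Sat1* are shown as the regulatory sequence of the first step of synthesis, the last step of synthesis and the first step of breakdown. They come from RefSeq on build GRCm38.p6, are written 5′ to 3′ on the strand of the gene, and carry in capitals the GC box (GGGCGG or its reverse complement, CCGCCC) that SP1-type factors bind and the E-box (CACGTG) that MYC and MAX bind.
Odc1 (chr12:17544623-17544872, plus strand): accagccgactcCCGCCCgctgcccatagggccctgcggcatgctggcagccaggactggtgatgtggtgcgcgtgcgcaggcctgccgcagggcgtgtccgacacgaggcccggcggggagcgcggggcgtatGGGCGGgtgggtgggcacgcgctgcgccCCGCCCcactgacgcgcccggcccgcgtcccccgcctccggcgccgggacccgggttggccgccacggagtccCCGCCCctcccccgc
Sms (chrX:157492288-157492537, minus strand): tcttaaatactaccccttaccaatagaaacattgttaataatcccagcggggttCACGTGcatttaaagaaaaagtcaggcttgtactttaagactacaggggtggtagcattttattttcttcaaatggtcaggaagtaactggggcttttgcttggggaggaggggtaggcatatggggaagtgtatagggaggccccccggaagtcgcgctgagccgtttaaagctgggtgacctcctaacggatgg
Sat1 (chrX:155216450-155216699, minus strand): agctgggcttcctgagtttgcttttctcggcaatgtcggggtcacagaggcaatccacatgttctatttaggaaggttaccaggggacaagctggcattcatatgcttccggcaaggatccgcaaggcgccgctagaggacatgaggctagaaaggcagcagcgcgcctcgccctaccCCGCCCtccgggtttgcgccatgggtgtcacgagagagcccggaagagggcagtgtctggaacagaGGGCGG

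The *Odc1* window held 4 GC boxes and no E-box, the *Sat1* window 2 GC boxes and no E-box, and the *Sms* window 1 E-box and no GC box. A second *Sms* start had 4 GC boxes. Of 32851 mouse promoters of the same length, 32.7% held the GC box and 6.02% the E-box on either strand. These matches describe the letters only.

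The labels fitted the arrays: *Olfm4* lay between 3.00 and 3.25 on the 4 knockout arrays and between 10.23 and 10.74 on the 4 wild-type arrays (log2 values, limma adjusted p = 1.79e-06; exact permutation test, 2-sided, p = 0.0286, the smallest that 4 arrays against 4 allow). The prostate products *Pbsn* and *Tgm4* were at log2 values of 13.64 or more on all 8 arrays. Knockout array 1 and wild-type array 1 carried abundant seminal vesicle transcripts, with a summed level of 6 markers of 16.44 and 16.74 on the log2 scale against 10.93 to 12.95 on the others. Knockout array 1 was also alone in a low level of *Msmb*, a major prostatic secretory protein, at 11.09 against 14.09 to 14.35 on the other 7 arrays. Several results that rest on this array are given with and without it.

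None of the 18 polyamine probe sets differed between *Olfm4*-knockout and wild-type prostate after adjustment over all probe sets (limma with array day, adjusted p from 0.387 to 0.968). Of all probe sets, 0.111% were called. The mean was higher in knockout prostate at 8 and lower at 10 of the 18 probe sets, and at the brightest probe set of each gene 4 genes were higher and 4 lower, with a median log2 fold change of 0.023 against -0.015 over all genes. Before adjustment, 1 probe set (*Sat1*) was higher and 1 (of *Oaz2*) lower with p under 0.05, together 11.1% of the members, where 12.8% of all probe sets passed (5.46% higher and 7.34% lower). ANOVA without array day called none and also had 2 members with p under 0.05 before adjustment. That count was 0 without wild-type array 1, 2 or 3 or knockout array 2 or 4, was 1 without knockout array 1 and rose to 4 without wild-type array 4. In whole tissue, fewer cells of a type and less RNA per cell cannot be told apart. A log2 fold change is the knockout mean minus the wild-type mean of log2 values, and levels of different genes are not compared, since probes differ in brightness.

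**Figure D1:**
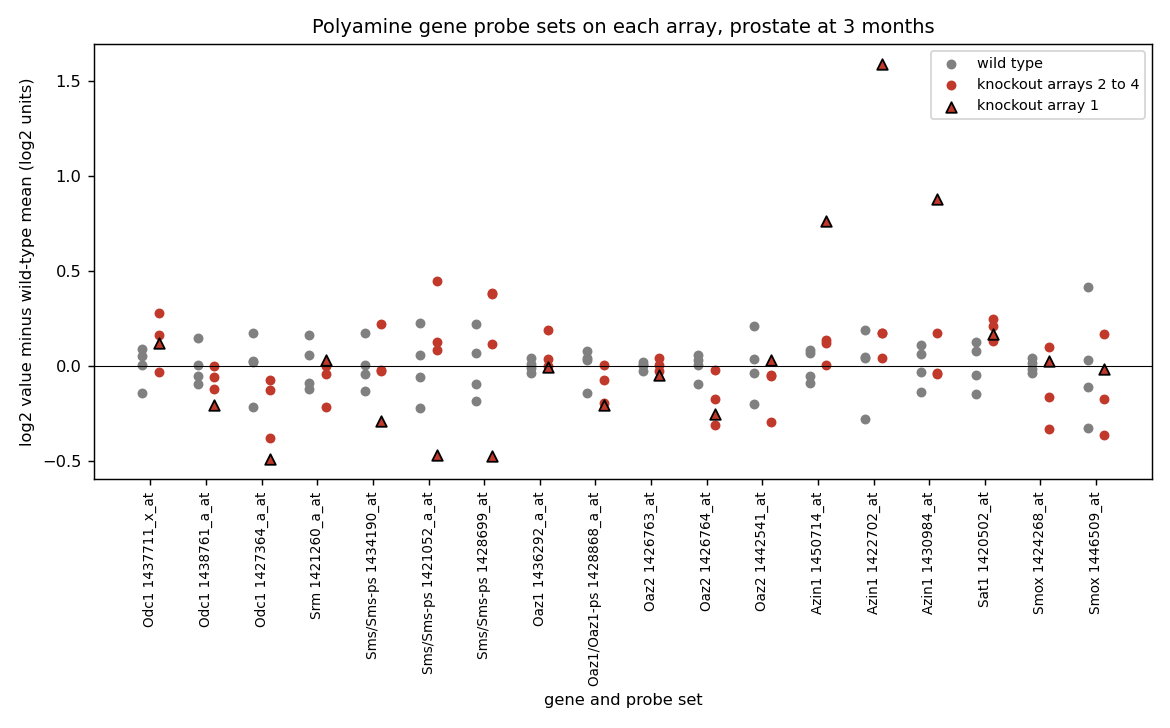
Log2 value of each of the 18 polyamine gene probe sets (x axis) on each array, minus the wild-type mean of that probe set (y axis, log2 units). Grey points are the 4 wild-type arrays, red points knockout arrays 2 to 4 and the red triangle knockout array 1, which stands highest at all 3 *Azin1* and lowest at all 3 *Sms* probe sets.

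Among the enzymes of synthesis, *Odc1* was read by 3 bright probe sets that did not move together. At its brightest probe set (1437711_x_at), whose suffix marks probes that can also bind other sequences, the log2 values were 12.60, 12.68, 12.45 and 12.65 on wild-type arrays 1 to 4 and 12.71, 12.87, 12.56 and 12.75 on knockout arrays 1 to 4. The groups overlapped, and the log2 fold change was 0.13 (95% confidence interval -0.078 to 0.34, limma adjusted p = 0.590). At 1427364_a_at the values were 12.13, 11.98, 11.98 and 11.74 in wild-type and 11.46, 11.58, 11.88 and 11.83 in knockout prostate, so that knockout arrays 1 and 2 lay below all others while knockout arrays 3 and 4 lay within the wild-type range. Its log2 fold change was -0.27 (95% confidence interval -0.54 to 0.0013, unadjusted p = 0.0509, limma adjusted p = 0.392). Without knockout array 1 it was -0.21 (limma unadjusted p = 0.13). The split followed the array day, since the difference was -0.078 on day 1 and -0.46 on day 2. At the remaining probe set (1438761_a_at) the log2 fold change was -0.098 (95% confidence interval -0.26 to 0.065). Over the 8 arrays the pair of probe sets with an a_at suffix had a Pearson r of 0.844 with each other and of -0.622 and -0.215 with the brightest. The direction of *Odc1* therefore depended on the probe set, and no probe set passed.

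*Srm*, spermidine synthase, had log2 values of 12.26, 12.15, 11.97 and 12.01 in wild-type and 12.13, 11.88, 12.10 and 12.05 in knockout prostate. Its groups overlapped almost completely, with a log2 fold change of -0.058 (95% confidence interval -0.27 to 0.15, limma adjusted p = 0.832), which as a fold change is 0.960 (0.830 to 1.11). *Sms*, spermine synthase, read together with its pseudogene, had values of 12.23, 12.37, 12.32 and 12.54 in wild-type and 12.08, 12.59, 12.34 and 12.35 in knockout prostate at its brightest probe set. Knockout array 1 was the lowest and knockout array 2 the highest of all 8. The log2 fold change was -0.031 (95% confidence interval -0.31 to 0.25, limma adjusted p = 0.943), and 0.069 without knockout array 1. The other *Sms* probe sets had log2 fold changes of 0.047 and 0.099, and without knockout array 1 the dimmest of them had 0.31 (unadjusted p = 0.0355, limma adjusted p = 0.343). The 3 *Sms* probe sets ordered the arrays alike (Pearson r of 0.729 to 0.948 over 8 arrays).

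The antizyme genes differed little at their brightest probe sets. *Oaz2* was at 13.41, 13.37, 13.42 and 13.40 in wild-type and 13.35, 13.40, 13.44 and 13.37 in knockout prostate, a log2 fold change of -0.0084 (95% confidence interval -0.14 to 0.12, limma adjusted p = 0.968). *Oaz1* was at 13.54, 13.51, 13.49 and 13.57 in wild-type and 13.52, 13.72, 13.53 and 13.56 in knockout prostate, a log2 fold change of 0.054 (95% confidence interval -0.11 to 0.22, limma adjusted p = 0.789). These intervals span fold changes of 0.907 to 1.09 for *Oaz2* and 0.929 to 1.16 for *Oaz1*. At a dimmer *Oaz2* probe set (1426764_at) the values were 9.40, 9.43, 9.45 and 9.30 in wild-type and 9.14, 9.08, 9.37 and 9.22 in knockout prostate. Knockout array 3 overlapped the wild-type range there, and the log2 fold change was -0.19 (95% confidence interval -0.38 to -0.00069, unadjusted p = 0.0494, limma adjusted p = 0.389), with -0.17 without knockout array 1 and with -0.054 on array day 1 and -0.33 on day 2. The dimmest *Oaz2* probe set (1442541_at), at log2 values between 5.05 and 5.55, had -0.091 with overlapping genotypes (limma unadjusted p = 0.428). It had 0.071 on day 1 and -0.25 on day 2. With knockout array 1 and wild-type array 1 left out it had -0.21 (limma unadjusted p = 0.127). The *Oaz1* probe set shared with *Oaz1-ps* had a log2 fold change of -0.12 (95% confidence interval -0.31 to 0.073). It followed the *Oaz2* probe set 1426764_at (Pearson r of 0.932 over 8 arrays) and the *Odc1* probe set 1427364_a_at (0.929), but not the other *Oaz1* probe set (-0.623).

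**Figure D2:**
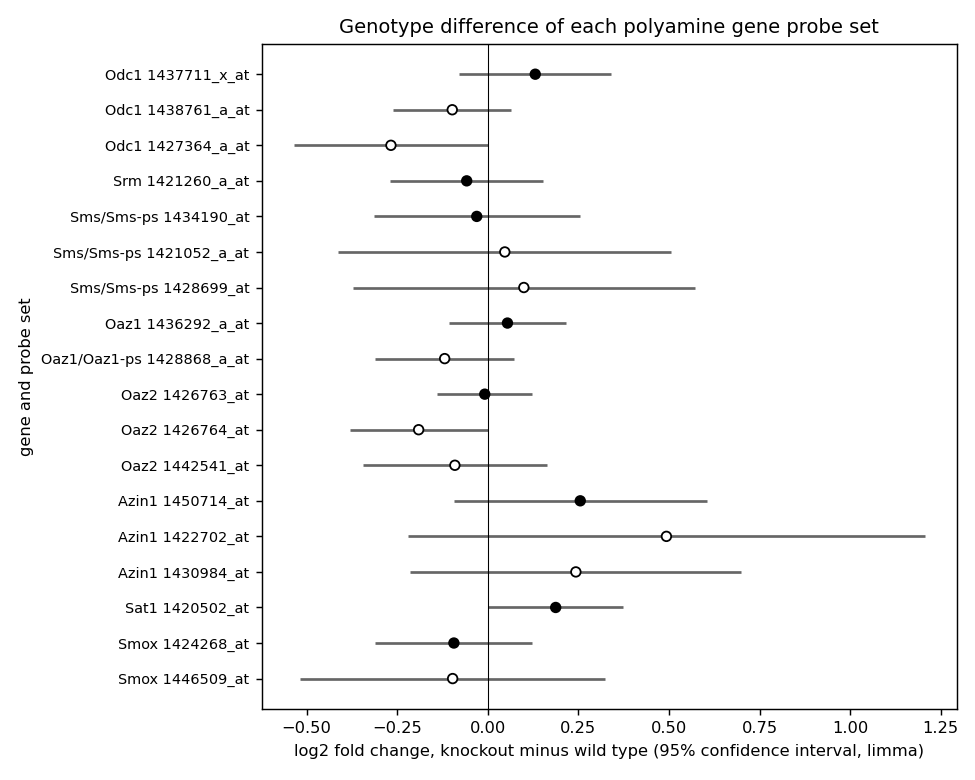
Log2 fold change of each polyamine gene probe set, knockout minus wild type (x axis), with lines for the 95% confidence interval from limma. Filled points are the brightest probe set of a gene, and the line stays clear of 0 at *Sat1* (0.0012 to 0.37) and at *Oaz2* 1426764_at (-0.38 to -0.00069) only, both without passing the adjusted test.

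*Azin1*, the antizyme inhibitor, had the widest spread between knockout arrays. At its brightest probe set (1450714_at) the values were 11.96, 11.84, 11.98 and 11.80 in wild-type and 12.65, 12.01, 11.90 and 12.03 in knockout prostate. At 1422702_at they were 10.33, 10.18, 10.18 and 9.86 in wild-type and 11.72, 10.31, 10.17 and 10.31 in knockout prostate. Knockout array 1 stood above the other 7 arrays at all 3 *Azin1* probe sets, while knockout arrays 2 to 4 lay within the wild-type range at 1422702_at and between 11.90 and 12.03 at 1450714_at, where the highest wild-type array was at 11.98. The log2 fold changes at these probe sets were 0.26 (95% confidence interval -0.095 to 0.61, limma adjusted p = 0.528) and 0.49 (-0.22 to 1.21, adjusted p = 0.552). They were 0.084 and 0.15 on array day 1 and 0.43 and 0.84 on day 2, which held knockout array 1. The dimmest probe set (1430984_at), near background at log2 values between 3.32 and 4.34, had 0.24, and 0.027 without knockout array 1. Without knockout array 1 the log2 fold changes at 1450714_at and 1422702_at were 0.093 (adjusted p = 0.661) and 0.14 (adjusted p = 0.654). Without both arrays rich in seminal vesicle transcripts they were 0.13 and 0.26 (unadjusted p = 0.183 and 0.0401, limma adjusted p = 0.564 and 0.358).

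The high *Azin1* value on knockout array 1 went with other features of that array. Its summed smooth muscle markers were at 16.15 against 15.76 to 15.93 on the other arrays, its endothelial markers at 11.12 against 10.30 to 10.60, and its androgen-dependent secretory products at 15.93 against 16.47 to 16.67. Members of the secretory and endothelial lists were not alike. *Msmb*, *Spink1* (12.88), *Azgp1* and *Fkbp5* were lowest on this array, while *Pbsn* (13.76), *Tgm4* (14.21) and *Tmprss2* (12.63) were not. *Tek*, *Emcn*, *Kdr* and *Tie1* were highest on it, but *Pecam1* was not and *Cdh5* (5.19) was lowest. Wild-type array 1, with a like seminal vesicle sum, had *Azin1* at 11.96 at the brightest probe set, where the other wild-type arrays were at 11.80 to 11.98, and at 10.33 at 1422702_at, where it was the highest of the wild-type arrays (9.86 to 10.18 on the others). The part of these transcripts in the *Azin1* value was not tested. The genes whose brightest probe set followed *Azin1* most closely over the 8 arrays, looked up after its values were seen, were *Edem2* (r = 0.989), *Gclm* (0.984), *Crot* (0.974), *Tmem198b* (0.971) and *Nfe2l2* (0.970). *Gclm* encodes a subunit of the enzyme that makes the glutathione precursor and *Nfe2l2* the oxidant-response factor NRF2. *Nfe2l2* was at 10.35 on knockout array 1 and at 9.93 to 10.07 on the other 7 arrays. All 5 genes were highest on knockout array 1, which follows from how they were chosen, since *Azin1* itself stood far above the other arrays there. These r values therefore rest largely on knockout array 1, and a shared function of the 5 genes was not tested.

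**Figure D3:**
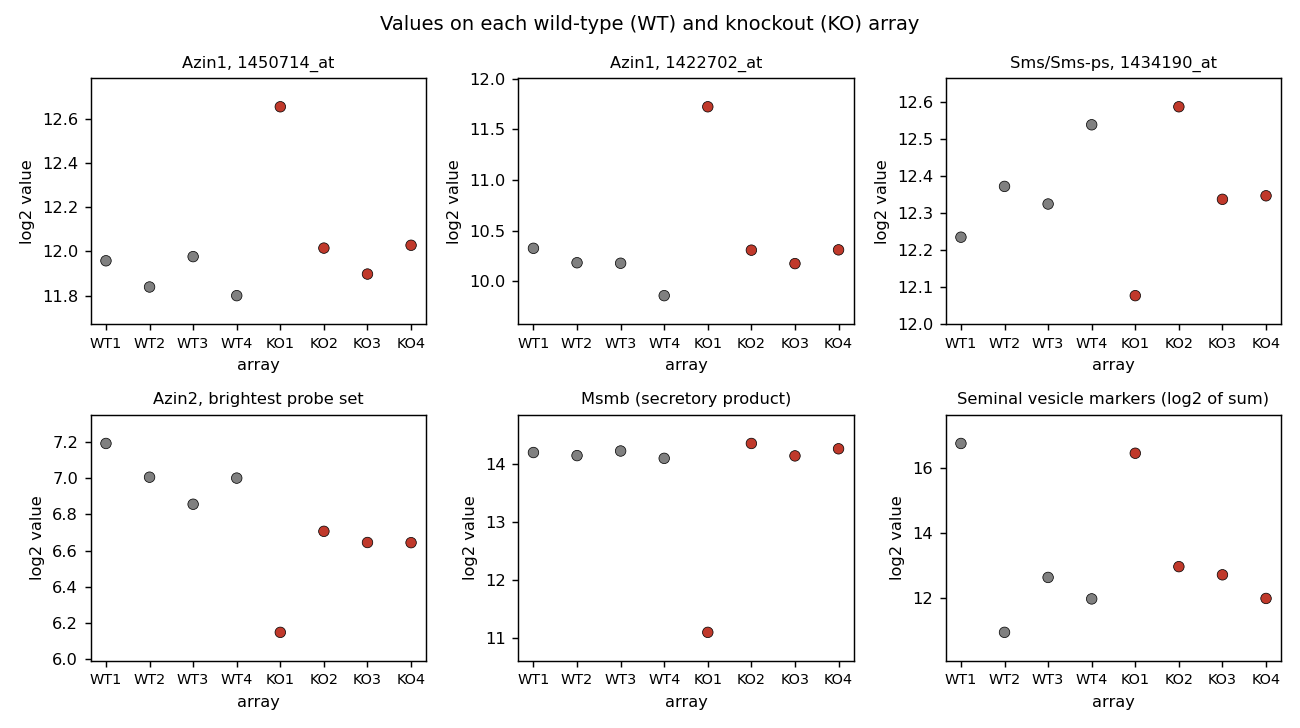
Log2 values (y axes) on each wild-type (WT, grey) and knockout (KO, red) array for *Azin1* at 2 probe sets, *Sms*, *Azin2*, the secretory product *Msmb* and the log2 of the summed seminal vesicle markers. Knockout array 1 is highest for *Azin1* (12.65 and 11.72) and lowest for *Sms* (12.08), *Azin2* (6.15) and *Msmb* (11.09), while the seminal vesicle sum is high on both KO1 (16.44) and WT1 (16.74).

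*Sat1*, the acetyltransferase that starts polyamine breakdown and export, was the only member whose genotypes did not overlap at the brightest probe set. Its values were 10.59, 10.69, 10.82 and 10.87 in wild-type and 10.91, 10.99, 10.87 and 10.95 in knockout prostate. The lowest knockout array lay 0.0053 above the highest wild-type array, and over the whole array 8.72% of probe sets (3.69% higher and 5.03% lower) and 10.8% of genes did not overlap. The log2 fold change was 0.19 (95% confidence interval 0.0012 to 0.37, a fold change of 1.14, unadjusted p = 0.0489, limma adjusted p = 0.387). It was 0.18 on array day 1 and 0.19 on array day 2. Without knockout array 1 it was 0.20 (limma unadjusted p = 0.0637), and without wild-type array 1 as well it was 0.14 (unadjusted p = 0.187). The unadjusted p was under 0.05 in 11 of 22 alternatives. The genes that followed *Sat1* most closely over the 8 arrays were *Smarca2* (r = 0.976), *Aplp2* (0.974), *Tex15* (0.969), *Pdcd2l* (0.957) and *Adam9* (0.954). For the brightest *Odc1* probe set they were *Ywhaq* (0.978), *Ndfip1* (0.977), *Phldb2* (0.969), *Asb13* (0.968) and *Zfp868* (0.959), each out of 10736 genes with a mean log2 value of at least 7. With only 8 arrays, which differ in genotype and array day, these values describe likeness and nothing further.

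*Smox*, spermine oxidase, had log2 values of 8.88, 8.82, 8.80 and 8.86 in wild-type and 8.86, 8.94, 8.68 and 8.51 in knockout prostate. The wild-type arrays lay close together, and knockout arrays 3 and 4, both of array day 1, lay below them. The log2 fold change was -0.094 (95% confidence interval -0.31 to 0.12, limma adjusted p = 0.721), with -0.28 on day 1 and 0.091 on day 2. A second *Smox* probe set, near background at log2 values between 3.83 and 4.60, had -0.42 and 0.22 on the same days. Neither probe set held its direction across the days.

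The other genes of polyamine supply, transport and use were taken from 6 lists with 55 genes, of which 51 had a brightest probe set of their own. None was called by limma after adjustment, where 0.17% of all genes were. Before adjustment, 10 had p under 0.05 (19.6%, against 14.8% of all genes), of which 3 were higher and 7 lower in knockout prostate, against 6.27% and 8.49% of all genes, and the median log2 fold change was -0.015, the same to that precision as over all genes. ANOVA without array day had 12 of the 51 with p under 0.05. The genotypes did not overlap for 4 higher and 6 lower genes of the 51, against 4.48% and 6.29% of all genes.

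Transport held the gene closest to the threshold. *Slc12a8*, a carrier of the SLC12 family, had log2 values of 7.60, 7.28, 7.42 and 7.41 in wild-type and 6.79, 6.81, 6.86 and 7.02 in knockout prostate. All knockout arrays lay below all wild-type arrays, with a log2 fold change of -0.56 (95% confidence interval -0.73 to -0.38, limma adjusted p = 0.0714). It was -0.57 and -0.55 on array days 1 and 2. A filter on a mean log2 value of at least 7 left the value as it was and gave an adjusted p of 0.0371 (0.0371 to 0.839 over all alternatives), and leaving out knockout array 1 and wild-type array 1 gave -0.51 with an adjusted p of 0.193. A second *Slc12a8* probe set, at log2 values between 3.81 and 4.69, had -0.16.

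The P5B-type ATPases, which carry polyamines across membranes of the endosome and lysosome, had means in opposite directions. *Atp13a3* was at 11.73, 11.85, 11.81 and 12.00 in wild-type and 12.06, 12.38, 12.07 and 12.13 in knockout prostate, a log2 fold change of 0.31 (standard error 0.099, unadjusted p = 0.0146, limma adjusted p = 0.293). *Atp13a2* was at 11.73, 11.81, 11.82 and 11.89 in wild-type and 11.64, 11.44, 11.66 and 11.49 in knockout prostate, a log2 fold change of -0.26 (standard error 0.078, unadjusted p = 0.0125, limma adjusted p = 0.283). The groups did not overlap for either gene at these probe sets. Other probe sets gave -0.012 and -0.27 for *Atp13a3* and -0.16 and 0.11 for *Atp13a2*. *Atp13a4*, named here after its value was seen, had 0.37 (unadjusted p = 0.0446). Among 10 measured transport genes, 2 higher and 2 lower genes had an unadjusted p under 0.05, against 6.27% and 8.49% of all genes.

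The methionine cycle and salvage returns the by-product of spermidine and spermine synthesis to methionine. At the brightest probe set, 10 of its 11 measured genes had a lower mean in knockout prostate, as had 9788 of all 18194 genes. Of the 11, 3 (27.3%) were lower with an unadjusted p under 0.05, against 8.49% of all genes. The 10 with a lower mean included *Mat2b* at -5e-05 and *Adi1* at -0.015. Dimmer probe sets, named here after their values were seen, went in both directions. A dimmer *Adi1* probe set had 0.50 without overlap of genotypes (limma unadjusted p = 0.0019, adjusted p = 0.199). *Mtr* had 0.16 near background (unadjusted p = 0.0495), while *Mtap* had -0.36 (unadjusted p = 0.0421). *Mri1*, the isomerase of the salvage route, was at 10.63, 10.69, 10.83 and 10.72 in wild-type and 10.13, 10.32, 10.45 and 10.51 in knockout prostate, a log2 fold change of -0.37 (standard error 0.095, limma adjusted p = 0.246). *Apip*, the dehydratase of the next step, was at 11.96, 11.91, 12.01 and 11.74 in wild-type and 11.32, 11.60, 11.62 and 11.71 in knockout prostate, a log2 fold change of -0.34 (standard error 0.10, limma adjusted p = 0.283). Neither gene overlapped between genotypes, and knockout array 1 held the lowest value of both. Without it the log2 fold changes were -0.29 and -0.25, and without wild-type array 1 as well they were -0.34 and -0.21 (unadjusted p = 0.0115 and 0.0761). On array day 1 they were -0.19 for both genes, and on day 2 -0.54 for *Mri1* and -0.50 for *Apip*. A second *Mri1* probe set, near a log2 value of 5, had 0.11. *Mat1a*, an S-adenosylmethionine synthetase of liver, had -0.42 (limma adjusted p = 0.314) at log2 values under 5, near background, with -0.18 on day 1 and -0.66 on day 2.

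At the brightest probe set, all 6 measured genes of the list of other antizymes, inhibitors and acetyltransferases had a lower mean in knockout prostate. So had 9788 of 18194 genes. Of the 6, 2 had an unadjusted p under 0.05, where 8.49% of all genes were lower at that threshold. The other *Oaz3* probe sets all had a higher mean, with log2 fold changes of 0.033 to 0.074, against -0.12 at the brightest. *Azin2*, the second antizyme inhibitor, was at 7.19, 7.00, 6.86 and 7.00 in wild-type and 6.15, 6.71, 6.64 and 6.64 in knockout prostate. The groups did not overlap, and the log2 fold change was -0.48 (standard error 0.12, unadjusted p = 0.00552, limma adjusted p = 0.244), or -0.36 without knockout array 1 and -0.29 without wild-type array 1 as well. Its other probe sets had 0.11 and 0.20. *Hdac10*, a deacetylase of acetylated polyamines, had -0.24 (unadjusted p = 0.0401, limma adjusted p = 0.366) and *Acy3*, an aminoacylase, -0.16 (limma adjusted p = 0.401).

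In the supply of arginine and ornithine, 1 of 10 genes had an unadjusted p under 0.05, against 14.8% of all genes. The gene was *Gatm*, the first enzyme of creatine synthesis, with 0.39 (limma adjusted p = 0.311) at log2 values under 5, and with 0.66 on array day 1 and 0.11 on day 2. *Slc7a1*, a carrier of basic amino acids, had 0.17 (limma adjusted p = 0.429), with 0.055 on day 1 and 0.28 on day 2. *Asl*, which releases arginine, had -0.17 (limma adjusted p = 0.543), or -0.11 without knockout array 1. Its direction turned between the days, with 0.019 on day 1 and -0.37 on day 2. Hypusine is the spermidine-derived residue of the translation factor eIF5A. At the brightest probe set, its 4 genes and the 10 users and regulators had none at an unadjusted p under 0.05. There *Eif5a* had 0.033, *Dhps* -0.13 and *Dohh* -0.071. Dimmer probe sets are named here after their values were seen. One of *Dhps* had -0.20 (limma unadjusted p = 0.0208, adjusted p = 0.311). One of *Tgm2* had 0.42 (limma unadjusted p = 0.0145, adjusted p = 0.292), while its other dimmer probe sets had -0.090 to 0.050. Of the MYC network, *Mycn* had 0.16 and *Mxd1* -0.14. *Aldh9a1*, an aldehyde dehydrogenase of the list of users and regulators, had 0.099, or 0.055 without knockout array 1.

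**Figure D4:**
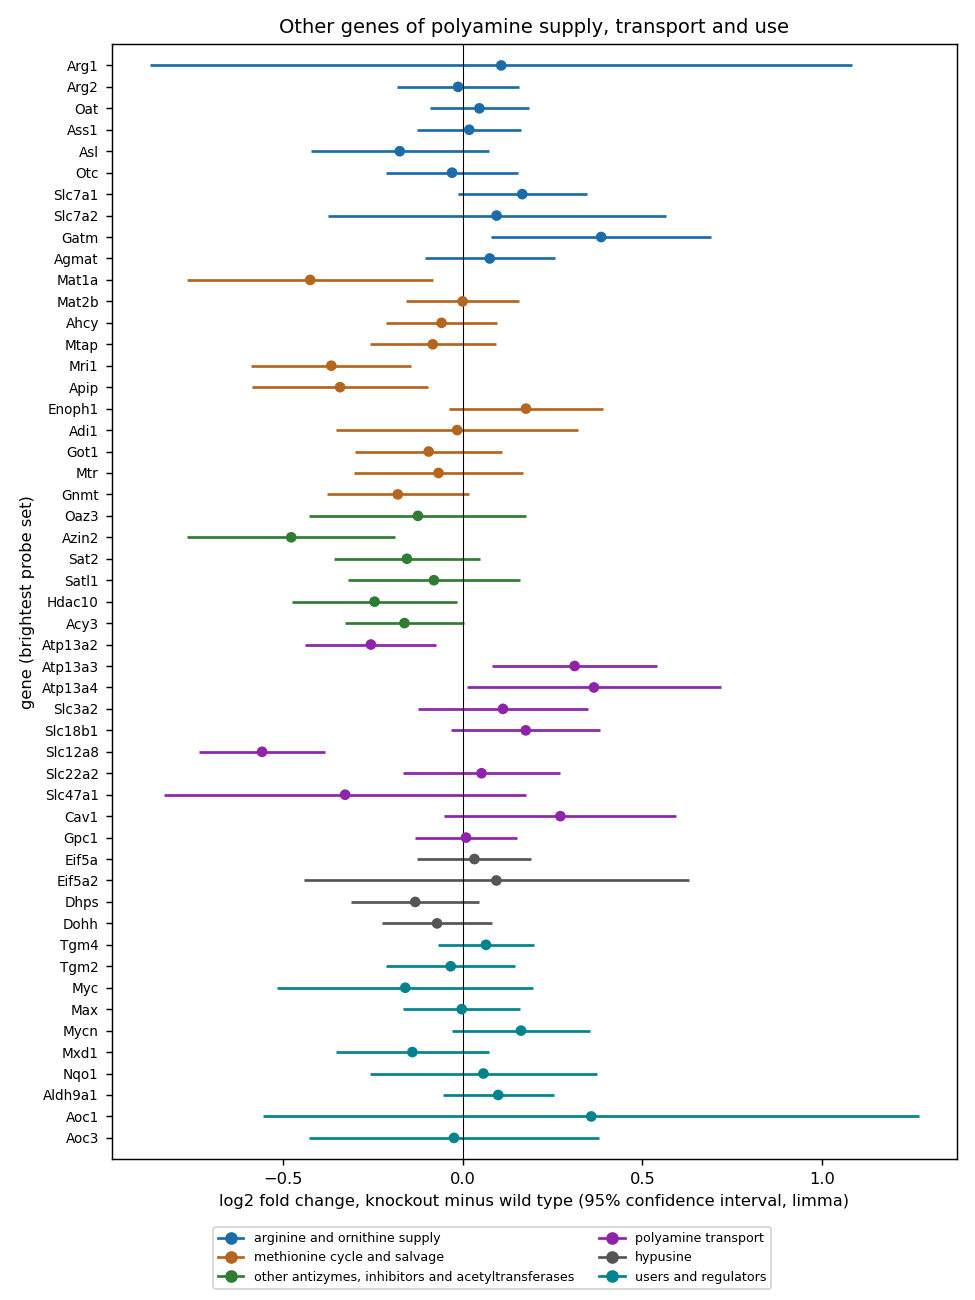
Log2 fold change, knockout minus wild type (x axis), of 51 other genes of polyamine supply, transport and use at the brightest probe set, with lines for the 95% confidence interval from limma and colours for the 6 lists. The intervals of 3 higher and 7 lower genes lie clear of 0, among them *Slc12a8* (-0.73 to -0.38).

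Markers of cell types bear on these whole-tissue values. Luminal epithelial markers had summed log2 levels of 16.14 to 16.23 in knockout and 16.13 to 16.19 in wild-type prostate. Basal epithelial markers were at 14.38 to 14.66 in knockout and 14.03 to 14.30 in wild-type prostate, without overlap of the sums. Of the 6, 3 (*Krt15*, *Dst* and *Lgals7*) had a higher mean with p under 0.05 before adjustment, against 6.27% of all genes. *Krt5*, *Krt14* and *Trp63* overlapped between genotypes (limma unadjusted p = 0.246, 0.442 and 0.249), as did *Krt15*. The sum weighs most on *Krt15* and *Dst*, which had the highest values of the list. Fibroblast markers were at 13.69 to 14.07 and 13.64 to 13.84, leukocyte markers at 11.88 to 12.56 and 12.14 to 12.57, and proliferation genes at 9.61 to 10.83 and 9.94 to 10.62 in knockout and wild-type prostate. All 7 fibroblast markers had a higher mean in knockout prostate, with a median log2 fold change of 0.27, against 0.26 for the basal markers. None of the 7 had an unadjusted p under 0.05. Lower at that threshold were 1 of 7 leukocyte markers and 1 of 6 proliferation genes, against 8.49% of all genes. These were *Cd3e* (-0.66, limma unadjusted p = 0.0119) and *Bub1* (-0.39, limma unadjusted p = 0.0110). None of the genes of these lists passed the adjusted test. The part of these levels in the polyamine gene values was not tested.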

How the data were processed

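RNA from whole prostate was hybridised to 1 array per mouse. The authors made the deposited values, which are on the log2 scale, with RMA (background subtraction, quantile normalization and a summary per probe set), of a version that no source used here gives. The labels name Trizol for extraction and the methods the RNeasy Plus Mini Kit, and the methods give 5 mice per genotype where the labels give 4 (a legend of the study gives 4 or 3 for the arrays). The 64 control probe sets were left out. Knockout and wild-type arrays were compared in limma 3.58.1 under R 4.3.3 by a 2-sided test with terms for genotype and day of the array, and Benjamini-Hochberg adjustment covered all 45037 probe sets. The methods name ANOVA without covariates, which was run as an alternative. The fit was tested on simulated data.

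To stand for a gene, the probe set of 1 symbol was taken that had the highest mean over the 8 arrays; *Sms*, with none of its own, by its brightest shared probe set. Of the probe sets, 34945 had 1 symbol, 932 several and 9160 none. Of the 18194 gene symbols, 18146 were found in RefSeq of GRCm38.p6, and 8 of the 10 listed genes had a promoter entry. Text names all polyamine probe sets, *Olfm4*, up to 3 genes with the smallest p of each list, and the 5 genes most like *Odc1* and *Sat1*. The genes and lists were chosen with earlier results of these data known. Sums of markers are log2 of summed linear values. No array duplicated another (correlations 0.983 to 0.996). The number of arrays limits precision. The labels do not say whether the mice were littermates.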

Additional observations from a re-analysis of the deposited data

Results flagged for a closer look

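In groups of 4 arrays, a value was singled out where its gap to the nearest other array exceeded the 95% critical value of the test of Dixon, which chance does in about 5% of groups, or 1 in 20. This held for 6 of 72 groups of polyamine probe sets and named genes. On knockout array 1, *Azin1* at 1422702_at was at 11.72 against 10.17 to 10.31 on the other knockout arrays, *Azin2* at 6.15 against 6.64 to 6.71, and *Aldh9a1* at 12.35 against 12.16 to 12.19. On knockout array 2, *Eif5a* was at 13.66 against 13.53 to 13.55. On wild-type array 1, *Acy3* was at 9.84 against 9.69 to 9.71, and on wild-type array 2, *Aldh9a1* was at 12.07 against 12.14 on each of the other wild-type arrays.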

How the results depend on the processing

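No polyamine probe set was called in limma or ANOVA under any alternative run. At an unadjusted p under 0.05 there were 2, as against 0 with blocks by replicate number or on array day 1 alone, 1 with arrays centred on the median, with cyclic loess, with a filter on a mean log2 value of at least 5 and without knockout array 1 and wild-type array 1, and between 0 and 4 when 1 array was left out. Genes without overlap numbered 1, but 0 with cyclic loess, 2 and 5 on array days 1 and 2 alone, where 2 arrays faced 2, and 1 to 3 when 1 array was left out (3 without knockout array 3). The median log2 fold change was 0.023, and 0.10 on array day 2 alone. The other pathway genes at an unadjusted p under 0.05 numbered 10, and 3 on array day 1 alone. *Slc12a8* was called with the filter at 7 only (adjusted p = 0.0371). With more than 1 probe set averaged, *Odc1* had -0.078 in place of 0.13. Over all probe sets, 50 were called, and from 4 on either day alone to 73 with an intensity trend and robust variance. Replicate numbers were shared by the genotypes, but same-numbered arrays deviated together for replicates 1 and 2 only (r = 0.336 and 0.173, against 0.0433 and -0.00559 for 3 and 4), so the block is not read as a pairing; with it 20 probe sets were called. With 4 arrays a genotype, the standard error at the brightest probe sets ran from 0.056 for *Oaz2* to 0.15 for *Azin1* on the log2 scale.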
